A study of Mus musculus with 4 samples.

Results

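Expression of 33 genes of fatty acid oxidation and of the PPAR programme was examined in EO771 cells, a mouse mammary carcinoma line, that had received recombinant A-FABP or PBS. The genes were taken from a fixed list, each read from a probe set whose annotation names that gene alone. Crat alone had 2 such probe sets, and the brighter stood for it. This gave values for 31 of the 33 genes, out of 22180 genes on the array. Ucp2, an uncoupling protein gene, had no probe set of its own, and Cpt1b, the muscle form of the carnitine palmitoyltransferase, was named only together with another gene, so neither has a value here. The A-FABP group was 2 arrays of EO771 cells given recombinant mouse A-FABP at 100 ng/ml, and the PBS group was 2 arrays of the same line given PBS. All cells had grown for 24 hours to at least 70% confluence beforehand. The titles call the arrays biological replicates, but nothing says whether they were separate cultures grown on different days, so p-values measure only the spread between these arrays. The free-text description of the PBS arrays also names A-FABP, although titles, source names and design text mark those arrays as controls, as they are treated here. Each value is a log2 expression value, so a difference of 1 is a doubling.

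Fatty acid oxidation shortens activated fatty acids (acyl-CoA) by repeated cycles of dehydrogenation, hydration, dehydrogenation and thiolysis. Mitochondria import long-chain acyl groups through the carnitine shuttle and pass the electrons to the respiratory chain, whereas peroxisomes handle very long and branched chains and hand shortened products on as carnitine esters. Many of these genes are targets of the PPARs, nuclear receptors that bind fatty acids. A-FABP, the product of Fabp4, is an adipocyte fatty acid carrier that also circulates in blood, and inside cells it can deliver ligands to PPARs. How the transcripts of this programme compare after exposure to the extracellular protein is the question of the comparison.

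The arrays had similar scales, with medians of 5.98 and 5.95 in the A-FABP group and 6.03 and 6.03 in the PBS group. The SD of the difference between replicate arrays over 41345 probe sets was 0.320 in the A-FABP group and 0.303 in the PBS group. Of 11 epithelial and carcinoma markers, 7 lay above the array median on all 4 arrays, Krt8 among them, while Epcam and Cldn7 lay below it on all 4. Markers of other cells were mixed. Of 7 adipocyte markers 2 lay above the array median on all 4 arrays (Fabp4 and Plin1) and 4 below it, Adipoq and Lep among them. Fabp4, the gene of A-FABP itself, stood at 13.33 and 13.29 in the A-FABP group, against 13.20 and 13.18 in the PBS group. Its mean level was 13.25, where the highest of all genes was 14.0, so its transcript was abundant in both groups. Of 7 leukocyte and macrophage markers 3 lay above (Cd68, Csf1r and Cd14) and 3 below, Ptprc and Adgre1 among them. Of 6 fibroblast markers 3 lay above (Pdgfra, Col1a1 and Dcn) and 2 below, and of 5 endothelial markers 1 above (Cdh5) and 3 below. The log2 summed level of the 7 adipocyte markers was 13.32 to 13.37 in the A-FABP group and 13.23 to 13.24 in the PBS group, and that of the 7 leukocyte and macrophage markers 12.79 to 12.89 and 12.90 to 12.91. The corresponding ranges were 11.39 to 11.40 and 11.36 to 11.41 for 6 fibroblast markers, and 8.16 to 8.34 and 8.31 to 8.33 for 5 endothelial markers. The first sum is mostly Fabp4 (difference 0.11) and the second mostly Cd68 (-0.08), and the dimmer markers went both ways, with Pparg at -0.32, Cidec at -0.24, Cd14 at 0.28 and Csf1r at 0.16. At an unadjusted limma p under 0.05, Ptprc (-0.45) and Itgam (-0.34) of the leukocyte markers were lower, where 8.24% of all genes were. Col1a2 (-0.26) of the fibroblast markers and Tie1 (-0.29) of the endothelial markers were also lower at that threshold. Ptprc, Itgam, Col1a2 and Tie1 each lay below the array median on all 4 arrays. The fibroblast list as a whole had 4 differences above 0 and 2 below (median 0.10). The endothelial list had 2 above and 3 below (median -0.06). The part of such cells in the results below was not tested, and in RNA from whole cultures fewer cells of a type and less RNA per cell cannot be told apart.

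Taken over all 31 measured genes, the differences after A-FABP centred near 0 as deposited. The median difference, A-FABP minus PBS, was 0.01 on the log2 scale (quartiles -0.04 and 0.10), against a median of -0.01 over all 22180 genes (quartiles -0.16 and 0.10). The members were brighter, with a median level of 8.27 against 6.33 for all genes, and brighter genes differed less. Over all genes the median absolute difference was 0.17 at levels of 5 to 6 and 0.06 above 10. Differences ran from -0.36 for Pdk4 to 0.32 for Pex11a, with 17 genes above 0 and 14 below, a split that depended on scaling (25 and 6 after median centring of the arrays, 14 and 17 after a further quantile normalization). No member passed the limma test at an adjusted p under 0.05 (lowest adjusted p = 0.304), where 0 of 22180 genes (0.00%) did. At an unadjusted p under 0.05, 2 of the 31, Crot and Pex11a, were higher, where 4.81% of all genes were, and 0 were lower, where 8.24% were. Because none passed the adjusted test, the genes below are described by their values.

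The size of any change in most of these genes was bounded by the intervals. The 95% confidence interval from limma excluded a change of 1.5-fold in either direction for 27 of the 31 genes, as it did for 72.0% of all genes. The latter had a lower median level, so these shares are not of like genes. The 4 others were Pdk4, Angptl4, Pex11a and Acot2. A change of 2-fold was excluded for all 31, and for 96.0% of all genes. None of the 31 differed by 1.5-fold or more, as 1.33% of all genes did. In 12 of the 31 the groups did not overlap, 8 with A-FABP higher and 4 with A-FABP lower, where 53.5% of all genes showed no overlap (26.0% higher and 27.5% lower).

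**Figure D1:**
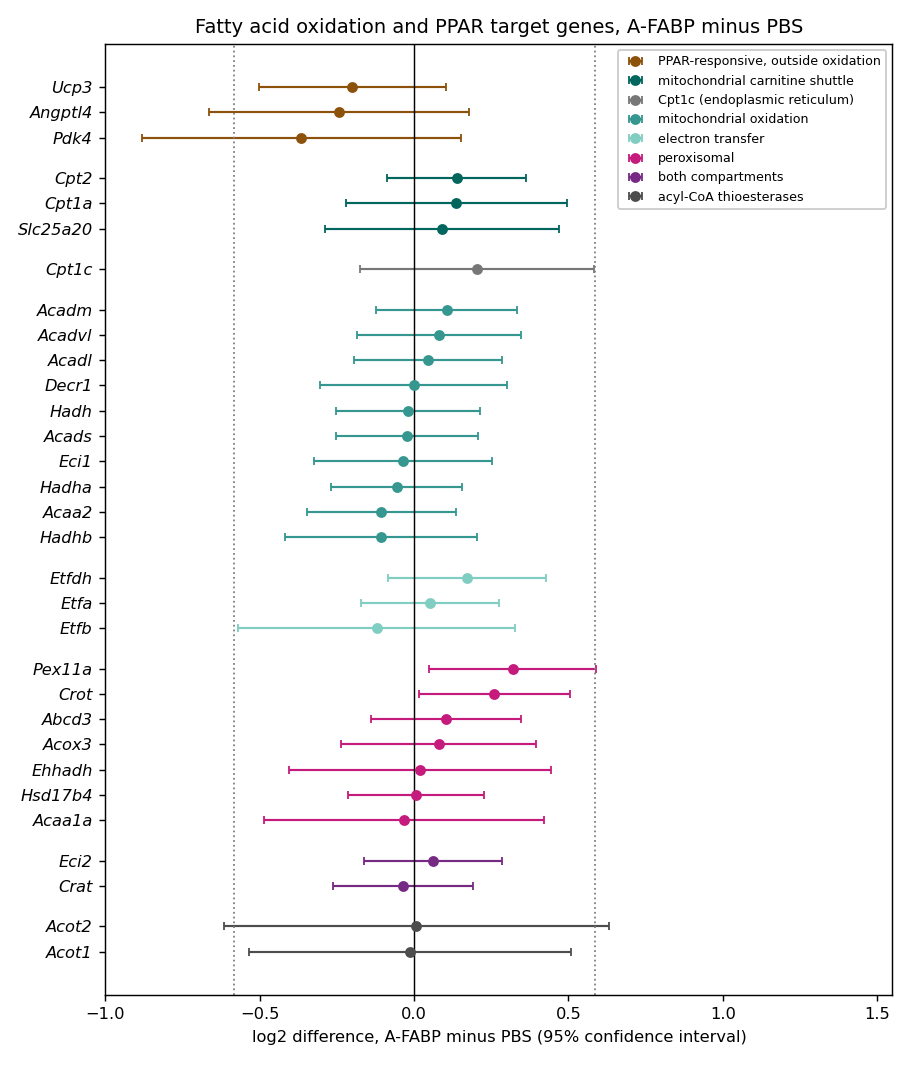
log2 difference, A-FABP minus PBS (horizontal axis), of the 31 measured genes (rows), coloured by role; bars are 95% confidence intervals from limma over 2 arrays per group, and dotted lines mark 1.5-fold in each direction. Only the intervals of Pex11a and Crot lie above 0, and 27 of the 31 intervals lie between the dotted lines.

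The PPAR-responsive genes that act outside the oxidation cycle lay below 0 in all 3 measured cases, under each scaling tried. Pdk4 encodes the kinase that shuts off pyruvate dehydrogenase when fatty acids are the fuel. Its log2 expression was 5.00 and 4.63 in the A-FABP group, against 5.33 and 5.03 in the PBS group. Both A-FABP arrays lay below both PBS arrays, but the higher A-FABP array and the lower PBS array were almost level. The difference was -0.36 ± 0.18 (SE; 95% CI -0.88 to 0.15; limma adjusted p = 0.418), and -0.18 without A-FABP replicate 2.

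Angptl4, a secreted inhibitor of lipoprotein lipase and a widely used PPAR target, had log2 expression of 6.02 and 5.70 in the A-FABP group, against 6.02 and 6.18 in the PBS group. A-FABP replicate 1 was level with PBS replicate 1, and the groups overlapped. The difference was -0.24 ± 0.15 (SE; 95% CI -0.66 to 0.18; limma adjusted p = 0.489), and -0.08 without A-FABP replicate 2. Ucp3, a mitochondrial carrier of muscle, stood at 5.94 and 5.76 in the A-FABP group, against 5.99 and 6.11 in the PBS group. These groups did not overlap, and the difference was -0.20 ± 0.11 (SE; 95% CI -0.50 to 0.10; limma adjusted p = 0.441), and -0.11 without A-FABP replicate 2. These genes lay around or below the array medians, where most genes were lower with A-FABP. The median difference was -0.15 for the 4885 genes with mean levels of 5 to 6, the range of Angptl4 and Ucp3, and -0.07 for the 4786 genes below 5, the range of Pdk4.

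The carnitine shuttle, which carries long-chain acyl groups into mitochondria, lay above 0 at each of its 3 measured steps, under each scaling tried. Without PBS replicate 2, Slc25a20 turned below 0 and the median of the 3 fell to 0.05, against 0.14 over all arrays. Cpt1a, the form of the rate-limiting transferase of the outer membrane found in liver and most tissues, had log2 expression of 7.98 and 7.75 in the A-FABP group, against 7.81 and 7.64 in the PBS group. The groups overlapped, since A-FABP replicate 2 lay below PBS replicate 1, and the difference was 0.14 ± 0.13 (SE; 95% CI -0.22 to 0.49; limma adjusted p = 0.627). It was 0.02 without A-FABP replicate 1, 0.25 without A-FABP replicate 2, 0.22 without PBS replicate 1 and 0.05 without PBS replicate 2. Cpt2, the transferase of the inner membrane, was steadier, at 8.79 and 8.79 in the A-FABP group, against 8.62 and 8.69 in the PBS group. Its groups did not overlap, and the difference was 0.14 ± 0.08 (SE; 95% CI -0.09 to 0.36; limma adjusted p = 0.470). Slc25a20, the translocase between these enzymes, differed by 0.09 with overlapping groups. Genes with mean levels of 7 to 8 and of 8 to 9 had median differences of 0.09 and 0.09, so the shuttle genes lay near the genes of their own level.

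Cpt1c, a relative of the transferase that sits in the endoplasmic reticulum and is best known from neurons, was at 7.189 and 7.423 in the A-FABP group, against 7.205 and 6.998 in the PBS group. The groups overlapped, and the difference was 0.20 ± 0.14 (SE; 95% CI -0.17 to 0.58; limma adjusted p = 0.511). It was 0.32 without A-FABP replicate 1, 0.09 without A-FABP replicate 2, 0.31 without PBS replicate 1 and 0.10 without PBS replicate 2.

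The enzymes of the mitochondrial cycle were close to level. Of 10 genes, 3 lay above 0 and 7 below, with a median of -0.02 and a range of -0.11 to 0.11, but 8 lay above and 2 below after median centring. The acyl-CoA dehydrogenases, which open the cycle for different chain lengths, lay at 0.08 for Acadvl (very long chains), 0.04 for Acadl (long), 0.11 for Acadm (medium) and -0.02 for Acads (short). Acadm, a classical PPAR target, had log2 expression of 10.050 and 10.098 in the A-FABP group, against 9.935 and 10.001 in the PBS group. Its groups did not overlap, although the gap between them was narrower than that between the PBS arrays. The difference was 0.11 ± 0.08 (SE; 95% CI -0.12 to 0.33; limma adjusted p = 0.562).

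The later steps of the cycle lay at or below 0 as deposited, and Hadha, Hadh, Decr1 and Eci1 turned above it with median centring. Acaa2, the mitochondrial thiolase that closes the cycle, was at 8.073 and 8.003 in the A-FABP group, against 8.099 and 8.188 in the PBS group. The groups did not overlap, by a small margin, and the difference was -0.11 ± 0.09 (SE; 95% CI -0.35 to 0.14; limma adjusted p = 0.584). Hadha and Hadhb, which encode the subunits of the trifunctional protein of long-chain oxidation, lay at -0.06 and -0.11. In the RefSeq annotation (GRCm38.p6, chromosome 5) these genes run in opposite directions with 272 bases between them. Hadhb was dim, with a mean level of 5.77 against 10.47 for Hadha. It turned above 0 after cyclic loess, with the trend on level removed and without PBS replicate 1. Hadh, a hydroxyacyl-CoA dehydrogenase for shorter chains, lay at -0.02. Decr1 (a dienoyl-CoA reductase) and Eci1 (an enoyl-CoA isomerase), auxiliary enzymes for unsaturated fatty acids, lay at 0.00 and -0.04.

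Electrons from the dehydrogenases pass to the electron transfer flavoprotein, made of the Etfa and Etfb products, and on through Etfdh to ubiquinone. Etfdh had log2 expression of 8.87 and 8.85 in the A-FABP group, against 8.76 and 8.62 in the PBS group. Both A-FABP arrays lay above both PBS arrays, and the difference was 0.17 ± 0.09 (SE; 95% CI -0.09 to 0.43; limma adjusted p = 0.438). Etfb went the other way with more scatter, at 8.12 and 7.81 in the A-FABP group, against 8.21 and 7.97 in the PBS group. Its groups overlapped, and the difference was -0.12 ± 0.16 (SE; 95% CI -0.57 to 0.33; limma adjusted p = 0.741). Etfa lay at 0.05.

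The members with the lowest p both belong to peroxisomes. Pex11a encodes a membrane protein that drives elongation and division of peroxisomes. Its log2 expression was 6.65 and 6.79 in the A-FABP group, against 6.44 and 6.36 in the PBS group. The groups were clearly apart, and the gap between them was wider than that between replicates. The difference was 0.32 ± 0.10 (SE; 95% CI 0.05 to 0.59), or 1.25-fold higher, at an unadjusted limma p of 0.0305 and an adjusted p of 0.304. Genes with mean levels of 6 to 7 had a median difference of -0.10, so Pex11a lay 0.42 above its own level band.

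Crot encodes carnitine octanoyltransferase, which converts chain-shortened acyl-CoA to carnitine esters for export from peroxisomes. It stood at 8.83 and 8.81 in the A-FABP group, against 8.62 and 8.50 in the PBS group. Again the groups were apart by more than either replicate gap. The difference was 0.26 ± 0.09 (SE; 95% CI 0.01 to 0.51), or 1.198-fold higher, at an unadjusted limma p of 0.0424 and an adjusted p of 0.319. The median difference of genes at levels of 8 to 9 was 0.09, which leaves 0.17. The unadjusted limma p of Crot was 0.132 without A-FABP replicate 1, 0.111 without A-FABP replicate 2, 0.0675 without PBS replicate 1 and 0.176 without PBS replicate 2. For Pex11a the limma p-values in the same order were 0.0418, 0.115, 0.0754 and 0.131.

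The other peroxisomal genes showed smaller differences. Abcd3, a transporter of acyl-CoA into peroxisomes, lay at 0.11 with groups that did not overlap, and Acox3, an oxidase for branched chains, at 0.08. Ehhadh, a bifunctional enzyme of the cycle that is strongly induced by PPAR alpha in rodent liver, had log2 expression of 5.663 and 5.998 in the A-FABP group, against 5.736 and 5.885 in the PBS group. The A-FABP arrays enclosed the PBS arrays, and the difference was 0.02 ± 0.15 (SE; 95% CI -0.40 to 0.44; limma adjusted p = 0.962). Hsd17b4, the other bifunctional enzyme, lay at 0.01, and the thiolase gene Acaa1a at -0.03.

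**Figure D2:**
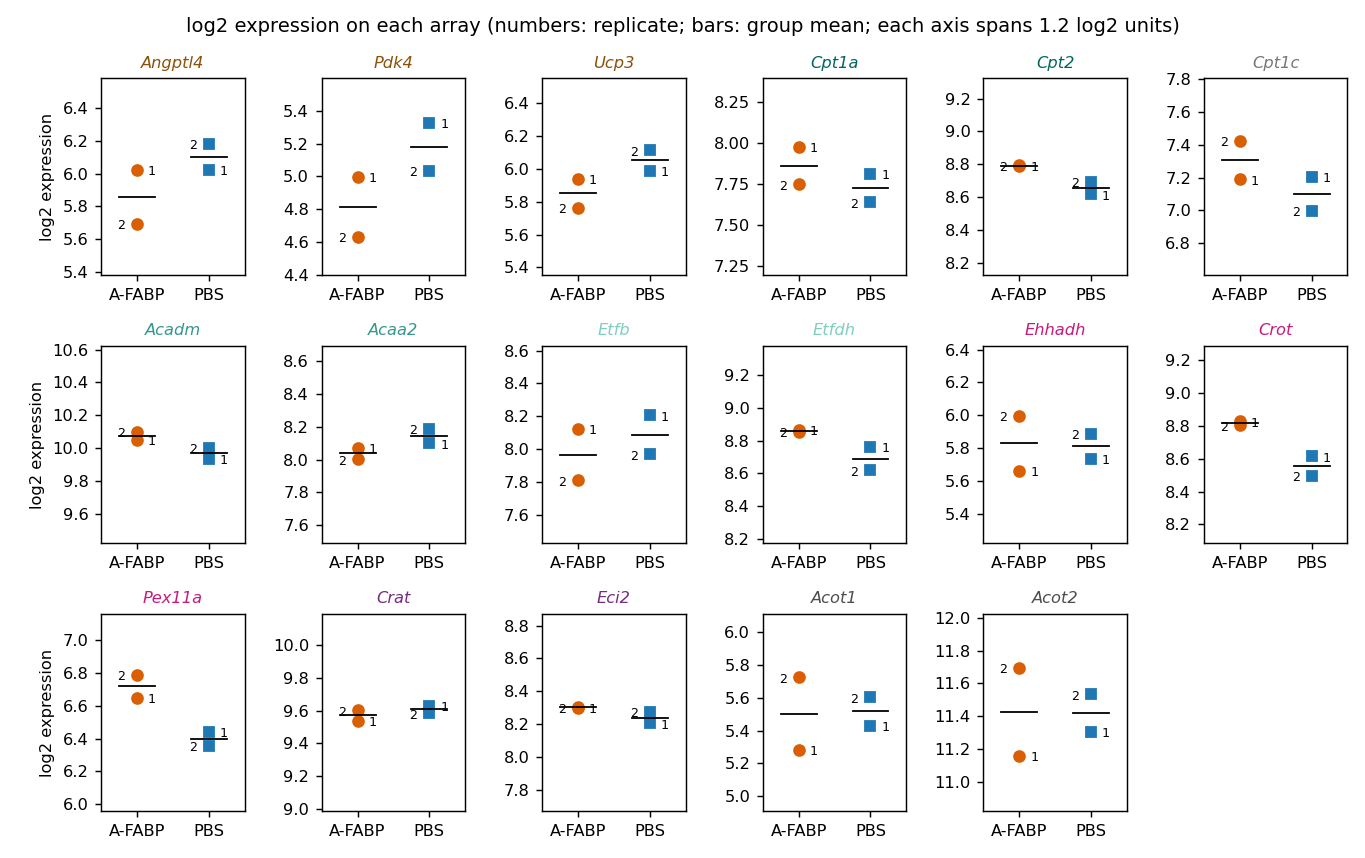
log2 expression (vertical axes, each spanning the same width) of 17 genes on each array, A-FABP as orange circles at left and PBS as blue squares at right, with replicate numbers beside the points and bars at the group means. Both A-FABP arrays lie above both PBS arrays for Pex11a, Crot, Etfdh, Cpt2, Acadm and Eci2, and below them for Pdk4, Ucp3 and Acaa2. Acot1, Acot2 and Ehhadh separate by replicate number with replicate 2 higher, and Cpt1a and Etfb with replicate 1 higher.

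The start regions of both peroxisomal genes are shown with those of Pdk4, the lowest member, and Acadm, a known PPAR target, because these are where elements of the programme would be looked for. The sequences are from RefSeq (GRCm38.p6), from 250 bases before to 50 after the annotated start, on the strand of the gene, which is the minus strand for all 4. Capitals mark AGGTCA, the repeat unit bound by PPARs and other nuclear receptors, GGGCGG (the GC box) and CCAAT, each searched on both strands.
Crot, chr5:8997097-8997396: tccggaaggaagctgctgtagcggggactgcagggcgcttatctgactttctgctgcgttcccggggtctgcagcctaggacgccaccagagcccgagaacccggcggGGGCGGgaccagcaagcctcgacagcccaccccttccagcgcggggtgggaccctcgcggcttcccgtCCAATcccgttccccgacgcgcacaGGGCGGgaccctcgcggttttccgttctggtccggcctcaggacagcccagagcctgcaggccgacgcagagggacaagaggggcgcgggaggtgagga
Pex11a, chr7:79743082-79743381: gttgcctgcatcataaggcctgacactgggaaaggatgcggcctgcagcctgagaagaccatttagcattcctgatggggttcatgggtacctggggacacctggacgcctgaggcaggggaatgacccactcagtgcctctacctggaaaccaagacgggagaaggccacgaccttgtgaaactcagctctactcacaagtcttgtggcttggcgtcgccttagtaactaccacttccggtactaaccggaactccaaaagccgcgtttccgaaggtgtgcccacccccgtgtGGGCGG
Pdk4, chr6:5496229-5496528: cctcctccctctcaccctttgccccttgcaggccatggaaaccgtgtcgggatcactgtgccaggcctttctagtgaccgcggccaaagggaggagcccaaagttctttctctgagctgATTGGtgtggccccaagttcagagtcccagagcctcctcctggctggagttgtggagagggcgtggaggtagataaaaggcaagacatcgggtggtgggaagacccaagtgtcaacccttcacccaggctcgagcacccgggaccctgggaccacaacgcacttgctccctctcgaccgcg
Acadm, chr3:153944594-153944893: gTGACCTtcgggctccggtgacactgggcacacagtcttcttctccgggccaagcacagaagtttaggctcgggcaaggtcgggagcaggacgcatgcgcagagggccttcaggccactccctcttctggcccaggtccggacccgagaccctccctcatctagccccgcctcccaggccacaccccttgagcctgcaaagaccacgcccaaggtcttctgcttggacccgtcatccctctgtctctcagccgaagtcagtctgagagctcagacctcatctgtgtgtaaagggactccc

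Among these windows, AGGTCA was found only in that of Acadm, at its upstream end. The RefSeq table held 28 start regions for 27 of the 33 genes. The full PPAR element (AGGTCA repeated in the same direction with any 1 base between, on either strand) was in 0 of the 28 and in 0.0396% of all 32851 windows. A looser form, with AGGNCA for both repeats, was likewise in 0, against 0.380% of all windows. The single unit AGGTCA, which both forms and the next motif can contain, was in 5 of the 28 (17.9%), those of Acadm, Acadvl, Cpt1a, Cpt1c and Ucp3, against 16.3% of all windows. TCAAGGTCA, bound by the estrogen-related receptors, was in 0 of the 28, against 0.423%. The GC box was in 20 of the 28 (71.4%), against 35.7% of all windows, CCAAT in 13 (46.4%), against 37.4%, and TATAAA in 0, against 13.6%. PPAR elements often lie outside such short windows, so these counts describe the letters of the windows and nothing more.

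Set against each other, mitochondrial members lay slightly lower than peroxisomal members, an order that the wider list below did not share as deposited. The 16 measured mitochondrial genes of the shuttle, cycle and electron transfer had a median difference of 0.02 (8 above 0 and 8 below, range -0.12 to 0.17), and the 7 peroxisomal genes a median of 0.08 (6 above and 1 below, range -0.03 to 0.32). Above 0 lay 47.6% of all genes. The medians differed by -0.06, mitochondrial minus peroxisomal, and by -0.06 to -0.05 under the other scalings. The groups did not overlap, with A-FABP higher, in 4 of 16 mitochondrial genes and 3 of 7 peroxisomal genes, where 26.0% of all genes did so, and with A-FABP lower in 2 and 0, where 27.5% did. No test was made over these lists, since their genes were chosen with earlier results known.

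The peroxisomal value varied between the A-FABP arrays, and Crot and Pex11a were the highest of its genes. Each gene was expressed as its deviation from its own mean over the 4 arrays, and the median was taken over genes. For mitochondrial genes these medians were 0.00 and 0.03 in the A-FABP group, against -0.01 and -0.02 in the PBS group. For peroxisomal genes they were 0.01 and 0.14 in the A-FABP group, against -0.07 and -0.09 in the PBS group. The difference between compartments was -0.01 without A-FABP replicate 2, and 0.00 when Crot and Pex11a were left out of the peroxisomal genes, a choice made after seeing the data. Leaving out the highest genes of a list can only lower its median, and no mitochondrial gene was left out beside them. Of the 5 other peroxisomal genes 4 lay above 0, with a median of 0.02.

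**Figure D3:**
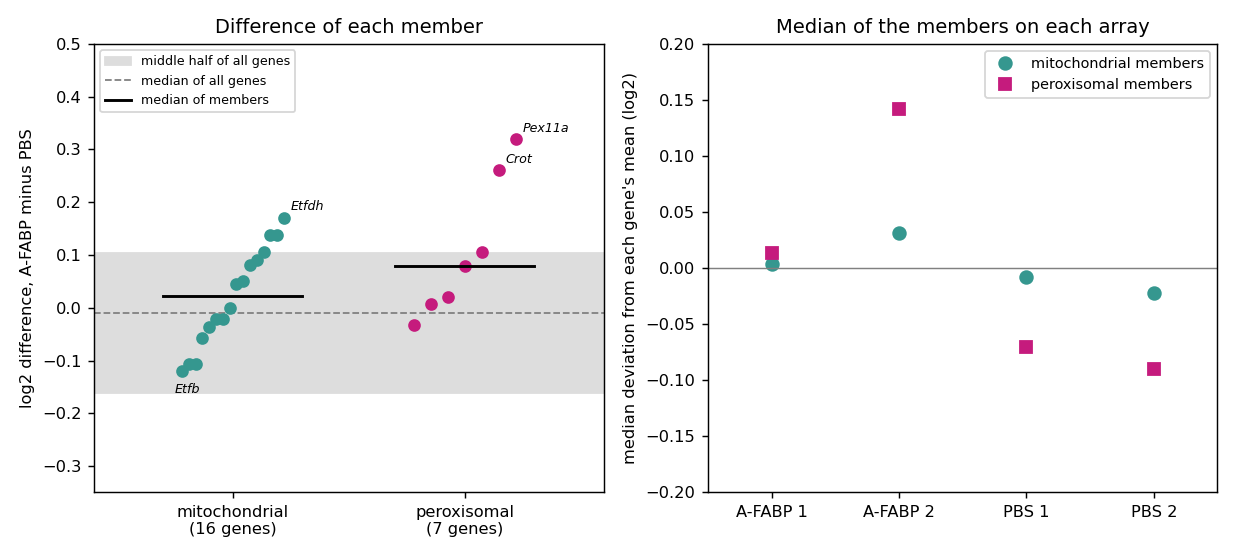
Left, log2 difference (A-FABP minus PBS) of 16 mitochondrial and 7 peroxisomal genes, one point per gene, with black bars at the medians of 0.02 and 0.08 and the middle of the distribution of all genes in grey. Right, median deviation of these genes from their own 4-array means on each array, where A-FABP replicate 2 holds the highest peroxisomal value.

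Enzymes present in both compartments were level. Crat, a carnitine acetyltransferase, was read by 2 probe sets. The brighter gave 9.54 and 9.60 in the A-FABP group, against 9.63 and 9.58 in the PBS group, with overlapping groups and a difference of -0.04 ± 0.08 (SE; 95% CI -0.26 to 0.19; limma adjusted p = 0.851). The dimmer gave 6.90 and 6.94 in the A-FABP group, against 7.11 and 7.10 in the PBS group, without overlap, and a difference of -0.19 ± 0.08 (SE; 95% CI -0.40 to 0.03; limma adjusted p = 0.366). The probe sets thus had the same sign but differed in size. Eci2, an enoyl-CoA isomerase, was at 8.30 and 8.30 in the A-FABP group, against 8.21 and 8.27 in the PBS group. Its difference was 0.06 ± 0.08 (SE; 95% CI -0.16 to 0.29; limma adjusted p = 0.734).

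The thioesterases, which release free fatty acids from acyl-CoA, varied more between replicates than between groups. Acot2, the mitochondrial enzyme, had log2 expression of 11.16 and 11.70 in the A-FABP group, against 11.30 and 11.53 in the PBS group. Its cytosolic paralog Acot1 stood at 5.28 and 5.73 in the A-FABP group, against 5.43 and 5.60 in the PBS group. In both genes replicate 2 was the higher array of each group and the A-FABP arrays enclosed the PBS arrays. The differences were 0.01 ± 0.22 (SE; 95% CI -0.62 to 0.63; limma adjusted p = 0.992) for Acot2 and -0.01 ± 0.19 (SE; 95% CI -0.54 to 0.51; limma adjusted p = 0.979) for Acot1. These genes are neighbours on chromosome 12, with 15624 bases between them (RefSeq, GRCm38.p6), and have similar coding sequences, so how far their probe sets share signal is uncertain.

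Over all genes the differences moved with mean level, and the members followed the genes of their level in some bands only. Of the 31 genes, 25 lay above the array median on all 4 arrays, while Pdk4, Hadhb and Acot1 lay below it on all 4. The 5 members with mean levels of 5 to 6 had a median difference of -0.11, against -0.15 for all 4885 genes there. The 10 members at levels of 8 to 9 had a median of 0.07, against 0.09 for all 2435 genes there, and the 5 members above 10 a median of 0.01, against 0.03 for all 2270. At levels of 7 to 8 the 4 members had a median of 0.11, against 0.09, and at 9 to 10 the 4 members had 0.03, against 0.06. The 2 members at levels of 6 to 7 were Pex11a (0.32) and Acaa1a (-0.03), with a median of 0.14 where all 3348 genes had -0.10. Only Pex11a had the opposite sign to that band. Pdk4, the single member below 5, lay at -0.36, against -0.07. Median absolute differences were 0.10 for members and 0.11 for all genes at levels of 8 to 9, 0.04 and 0.06 above 10, 0.04 and 0.09 at 9 to 10, 0.11 and 0.13 at 7 to 8, 0.18 and 0.17 at 6 to 7, 0.11 and 0.17 at 5 to 6, and 0.36 and 0.17 below 5.

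**Figure D4:**
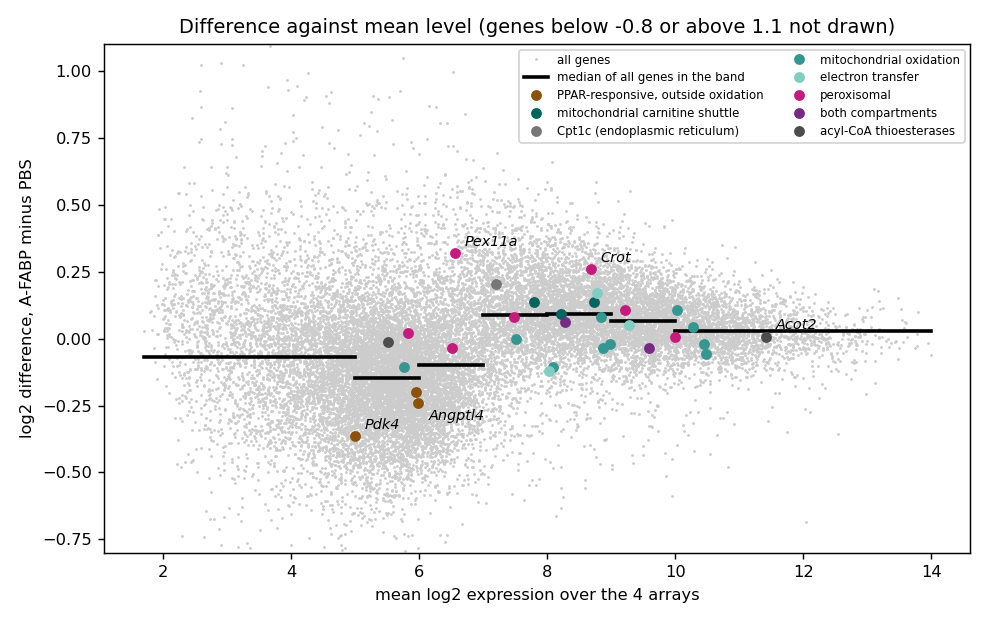
log2 difference, A-FABP minus PBS (vertical axis), against mean log2 expression over the 4 arrays (horizontal axis), with all genes in grey, their medians per level band in black and the 31 genes in the colours of their roles. Pdk4 and Angptl4 lie among dim genes, whose band medians are below 0, while Pex11a lies 0.42 above the median of its band.

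Among other genes of mitochondria, peroxisomes and the PPAR programme, from a wider list of 106 genes of which 94 were measured, none passed the adjusted threshold. This list was not limited to steps of fatty acid oxidation, so its compartments are not made of like genes to those of the members. At an unadjusted limma p under 0.05, 6 of the 94 were higher, where 4.81% of all genes were, and 6 lower, where 8.24% were. Of 21 further mitochondrial genes 17 lay above 0, where 47.6% of all genes did, with a median of 0.06 (13 of 21 and 0.01 after repeated quantile normalization, and a median of 0.02 without PBS replicate 1). Measured from the median of all genes in their own level bands, their median was -0.01. The 4 of them higher at an unadjusted p under 0.05 were Acad10, Slc25a29, Sirt5 and Acot9, and 0 were lower. Acad10, of the acyl-CoA dehydrogenase family, had log2 expression of 6.28 and 6.32 in the A-FABP group, against 5.91 and 5.87 in the PBS group, a difference of 0.41 ± 0.08 (SE; limma adjusted p = 0.296). Slc25a29, a mitochondrial carrier, lay at 0.29 and Sirt5, a mitochondrial deacylase, at 0.28, both without overlap between groups. Acot9, a mitochondrial thioesterase, lay at 0.40. Further peroxisomal genes had a median of 0.04 over 26, with 15 above 0, and 0 passed an unadjusted p under 0.05 in either direction. As deposited, the order of the compartments was thus the reverse of that among the members, with medians of 0.02 (mitochondrial) and 0.08 (peroxisomal). It turned back after repeated quantile normalization (0.009 mitochondrial and 0.012 peroxisomal) and without PBS replicate 1 (0.02 and 0.05). Measured from the level bands, the order was also that of the members. These medians were -0.007 (mitochondrial) and 0.011 (peroxisomal) here, and -0.01 and 0.07 among the members.

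Of 21 further PPAR-responsive genes 7 lay above 0, where 47.6% of all genes did, and 14 below, with a median of -0.09 (12 below and -0.03 after median centring). The median was -0.05 measured from their own level bands, and -0.05 without A-FABP replicate 2 or without PBS replicate 2. At an unadjusted limma p under 0.05, 4 of the 21 were lower (Cidea, Hilpda, Klf10 and G0s2), where 8.24% of all genes were, and 0 were higher, where 4.81% were. Cidea, a lipid droplet protein of brown fat, was dim, at 5.18 and 5.21 in the A-FABP group, against 5.63 and 5.71 in the PBS group, a difference of -0.47 ± 0.08 (SE; limma adjusted p = 0.296). Hilpda, a lipid droplet protein that restrains lipolysis and is also induced by hypoxia, was brighter, at 9.40 and 9.20 in the A-FABP group, against 9.71 and 9.70 in the PBS group. Its groups were apart by more than either replicate gap, and the difference was -0.40 ± 0.10 (SE; limma adjusted p = 0.296). Klf10, a transcription factor also induced by TGF-beta, lay at -0.38, and G0s2, an inhibitor of triglyceride lipase, at -0.31.

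Among receptors and coactivators, 16 genes had a median of -0.02. At an unadjusted limma p under 0.05, 1 was higher, where 4.81% of all genes were, and 1 lower, where 8.24% were. Tfam, which maintains and transcribes mitochondrial DNA, lay at 0.37, and the coactivator gene Ppargc1b at -0.58, at 5.27 and 5.13 in the A-FABP group, against 5.98 and 5.58 in the PBS group. Relatives of the members (10 genes) had a median of 0.06. Acacb, whose product makes the malonyl-CoA that inhibits carnitine palmitoyltransferase, lay at 0.33, and Ucp1, the uncoupling protein of brown fat, at -0.30. Ppargc1b, Tfam, Acacb, Ucp1, Acot9 and G0s2 were named after their values were seen.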

How the data were processed

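Biotin-labelled RNA of EO771 cells was hybridised to 4 expression arrays, 2 for A-FABP and 2 for PBS, with groups read from the array titles. The deposited table holds 1 log2 value per probe set and array, and the submitters' processing notes name RMA and Partek 6.6. No source used here gives the array design or genome build, and RMA compresses differences at both ends of the brightness scale. Depth has no meaning for arrays, whose number limits the precision.

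Of 41345 probe sets, the platform annotation names 1 gene for 23521, several for 1814 and none for 16010. Each gene was read from its brightest single-gene probe set, giving 22180 genes. Differences (A-FABP minus PBS) were fitted over all probe sets with limma 3.58.1 (lmFit, eBayes) in R 4.3.3, two-sided, with Benjamini-Hochberg adjustment and a threshold of 0.05. The fit had 2 residual and 1.91 prior degrees of freedom, and was tested on simulated data. The smallest two-sided p of an exact permutation test with 2 arrays per group is 0.33. The members and lists were chosen with earlier results of these data known. Full values are given for Angptl4, Pdk4, Cpt1a, Acadm, Ehhadh, every member at an unadjusted p under 0.05, and in each role group the 2 members of lowest p, which came to 17 genes. Ucp2, also listed for full values, has no probe set of its own. Of the wider list the 6 genes of lowest p were to be named. Crat, Eci2, Acot1, Acot2 and Cpt1c were counted in neither compartment. Alternatives changed the scaling, the trend on level, the variance model, the filter, the probe set choice, the replicate block and the arrays included. Over all genes, the deviations of same-numbered arrays from their group means correlated at -0.01, so the numbers were not taken as pairs. Peroxisomal targeting signals were planned but not analysed here, for want of protein sequences.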

Additional observations from a re-analysis of the deposited data

How the results depend on the processing

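No member passed the adjusted threshold under any of 12 alternatives, and neither did any of the genes tested beside them. Of the 31 members, 13 kept their sign under all 12, among them Crot, Pex11a, Pdk4, Angptl4 and Ucp3, and 18 changed it under at least 1. The count at an unadjusted p under 0.05 was 2 as reported, 1 (Pex11a) after cyclic loess, repeated quantile normalization or removal of the trend on level, and 0 to 1 with an array left out. With the replicate number as a block it was 1, Pdk4, while Crot and Pex11a had limma p-values of 0.0641 and 0.0646; the numbers are not shown to pair the arrays.

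The median over members was 0.0721 after median centring, which moved the median of all genes by 0.0650, and 0.0513 above the median level, where 25 members remain. Leaving out an array gave -0.0094 to 0.0765. The mitochondrial median was 0.0871 after median centring, -0.00687 after cyclic loess, -0.0196 after repeated quantile normalization, -0.00503 with the trend removed, 0.0445 above the median level, -0.00039 with Crat counted as mitochondrial, and 0.0109 to 0.041 with an array left out. The peroxisomal median was 0.144 after median centring, 0.0437 after cyclic loess, 0.0420 after repeated quantile normalization, 0.0415 with the trend removed, and 0.0173 to 0.182 with an array left out. The mitochondrial minus peroxisomal value was -0.141 to -0.00645 with an array left out, and 0.00229 without Crot and Pex11a, an alternative added after seeing the data. The cause of these shifts was not tested.

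Of the 17 genes described in full, signs turned in Acot1, Acot2, Eci2, Crat, Ehhadh and Etfb. Acot1 lay at 0.0508 after median centring, 0.105 after cyclic loess, 0.0606 after repeated quantile normalization and 0.106 with the trend removed. Acot2 lay at -0.0175, -0.0111 and -0.012 after cyclic loess, repeated quantile normalization and trend removal, and Eci2 at -0.00224, -0.00406 and -0.00746. Crat lay at 0.0283 after median centring. With an array left out, Acot1 ranged from -0.236 to 0.207, Acot2 from -0.262 to 0.276, Ehhadh from -0.148 to 0.187 and Etfb from -0.279 to 0.0375. Acaa2 (-0.151 to -0.0617), Etfdh (0.0995 to 0.242) and Eci2 (0.0272 to 0.0959) kept their sign.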
